A study of Mus musculus with 79 samples.

Results

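The comparison described here sets RNA from nuclei of AAV-injected mouse visual cortex against RNA from nuclei of uninjected visual cortex, across all genes. It uses 22 of the series' 79 libraries: 19 from injected cortex and 3 from uninjected cortex, chosen by their labels as libraries of all nuclei, with the injected ones labelled non transduced. The series asks about residual activity during dark housing and silences cortex with an AAV that carries the potassium channel Kir2.1. Each library was made from 50 to 100 nuclei sorted from frozen tissue and amplified in 17 PCR cycles (Meso-Seq with Nextera XT).

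The injected libraries came from cortex given AAV-Syn1-Kir2.1-2a-mScarlet-KASH (10 libraries, called Kir2.1) or the same vector with Kir2.1(Mutant) in place of Kir2.1 (9 libraries, called mutant). The 3 uninjected libraries carry no AAV in their labels, and the sources used here do not say whether these animals had a sham injection, so needle, virus and transgene cannot be told apart. All 22 libraries carry INTACT wt/ki together with VIP Cre wt/ki, and share the label of 10 days in dark housing. Mice were injected at 55 to 60 days of age and entered the dark 3 days later. Harvest in the dark and harvest after light are both named in the protocol, but every one of these labels gives dark housing alone. Syn1 is a neuronal promoter, so a glial nucleus in injected cortex would count as non transduced whether or not it had met a viral particle. Where injected libraries are given by a range, the 3 numbers are the lowest, the median and the highest of 19. Labels do not tie libraries to animals, so p-values measure only the spread between these libraries.

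Major histocompatibility complex (MHC) class I molecules present peptides from inside a cell to cytotoxic T cells, and class II molecules present captured peptides to helper T cells. Complement component C4 tags surfaces for removal, and interferons switch on genes that sense and restrict viruses. In healthy cortex, microglia are the main resident immune cells and antigen presentation genes are at low levels. AAV is a small DNA virus used as a gene carrier, and its capsid, its genome and the protein it encodes can each be seen by the immune system.

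The libraries had 3261893 to 8784101 counts in genes (median 6645828) in injected cortex and 5547482 to 6243742 in uninjected cortex. Between 19341 and 23757 genes had a count in injected libraries, against 19582 to 20593 in uninjected libraries. No library stood apart from the rest and none was a copy of another. Cortical neuron markers were present in both groups: Slc17a7, the vesicular glutamate transporter of cortical excitatory neurons, had 30.4, 56.1 and 167 CPM (a read count scaled to library size) in injected libraries, against 66.6, 87.4 and 58.7 CPM in uninjected libraries. The sex labels do not match the RNA. Y-linked transcripts went against the labelled sex in 8 of the 22 libraries, 3 of the Kir2.1 and 5 of the mutant group. Of the injected libraries 8 held Y-linked transcripts and 11 did not, while all 3 uninjected libraries, labelled male, held them.

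Immune genes were higher in injected cortex. Of 21362 genes tested, 52 were higher in injected libraries (0.243% of genes tested) and 1 was lower (0.00468%) at an adjusted p under 0.05 by edgeR's quasi-likelihood test with Benjamini-Hochberg adjustment. The higher genes included 7 of the class I list, 4 of the class II list, the complement gene C4b and the antibody genes Igkc and Jchain. For 42 of the 52 every injected library lay above every uninjected library, a separation that 64 of all genes tested showed (0.3%); 33 genes lay lower in every injected library (0.154%). Of the 52, 51 differed by at least 2-fold and 16 had no count at all in the uninjected libraries. Some of the 52 overlap another of them in the genome: Patl2 and B2m, Fam196b and Dock2, Gm2245 and Fyb, and Gm30211 and Igkc. Reads may be shared within these pairs, so the 52 may hold fewer separate signals. Of all 21362 genes tested, 1158 had no count in the uninjected libraries, and 0 had no count in the injected ones. Without uninjected library 2 the count was 25 higher, without library 3 it was 29 and without library 1 it was 64. Among the 11 libraries with Y-linked transcripts the test called 37 genes higher, 33 of them among the 52, and 9 lower (an alternative added after seeing the data). The count also moved with the tool: limma's voom with sample quality weights called 8 genes higher, all among the 52, and DESeq2 called 378. H2-Q7, C4b, H2-Q6, H2-D1, B2m, Epsti1, Patl2 and Syk passed under every alternative run, while H2-K1 and Cd74 did not pass in voom (adjusted p = 0.148 and 0.102). In each fit that left out 1 library, 18 of the 53 genes past the threshold passed, those from H2-Q7 to Nlrc5 in order of p; Tap1, H2-Aa, H2-Eb1, Sp100, Parp14, Parp9, Zc3hav1, Ly86, Jchain, Igkc and Glt8d2 are among the others.

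C4b, the B form of complement component C4 (ENSMUSG00000073418, GRCm38/mm10 chr17:34728380-34743882, minus strand), had 6.92, 24.6 and 74.5 CPM in injected libraries and 0 CPM in each of the 3 uninjected libraries. Every injected library was above every uninjected one. Against a floor of 3 counts over the uninjected group, C4b was at least 152-fold higher in injected cortex (adjusted p = 2.97e-05, edgeR). C4a, a near-identical neighbour from which reads cannot always be told apart, had 0, 1.85 and 8.35 CPM in injected libraries, against 2.70, 1.33 and 0.177 CPM in uninjected libraries.

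H2-K1, a classical class I heavy chain (ENSMUSG00000061232, chr17:33996017-34000347, minus strand), had 65.7, 119 and 357 CPM in injected libraries, against 7.14, 0 and 7.80 CPM in uninjected libraries. The lowest injected library stood well clear of the highest uninjected one. The difference was a log2 fold change of 4.87 ± 0.70 (SE), or 29.2-fold, with an adjusted p of 0.00029 in edgeR's quasi-likelihood test. H2-D1, the other classical class I heavy chain of this locus, had 67.5, 250 and 450 CPM in injected libraries and 23.2, 62.8 and 19.7 CPM in uninjected libraries. Here the gap was narrow, between the lowest injected library (mutant library 1) and uninjected library 2. B2m, the light chain that every class I molecule needs to reach the surface (chr2:122147686-122153083, plus strand), had 117, 206 and 710 CPM in injected libraries, against 42.8, 27.7 and 16 CPM in uninjected libraries. H2-D1 was 7.34-fold higher (log2 2.88 ± 0.43, SE, adjusted p = 0.000502) and B2m 8.45-fold higher (log2 3.08 ± 0.48, SE, adjusted p = 0.00077) in injected cortex by edgeR. Patl2 overlaps B2m on the opposite strand and its counts ran nearly equal to those of B2m, so the counts listed for Patl2 cannot be told apart from B2m and the pair may be 1 signal.

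Cd74, the invariant chain that guides class II molecules to the compartment where they load peptide (ENSMUSG00000024610, chr18:60803848-60812652, plus strand), had 14.3, 39.9 and 280 CPM in injected libraries and 0 CPM in each uninjected library. It was at least 375-fold higher in injected cortex (adjusted p = 0.000309, edgeR). The class II chains H2-Ab1 and H2-Aa were also at 0 CPM in all 3 uninjected libraries. H2-Ab1 had 3.01, 17.5 and 141 CPM and H2-Aa 0.301, 23 and 95.4 CPM in injected libraries. These were at least 156-fold and at least 158-fold higher in injected cortex (adjusted p = 0.00208 and 0.00853, edgeR). H2-Eb1, the beta chain of the second class II molecule, had 0.454, 12.3 and 108 CPM in injected libraries, against 0, 0 and 0.709 CPM in uninjected libraries (adjusted p = 0.0302). Its groups overlapped, since mutant library 4 lay below uninjected library 3.

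**Figure D1:**
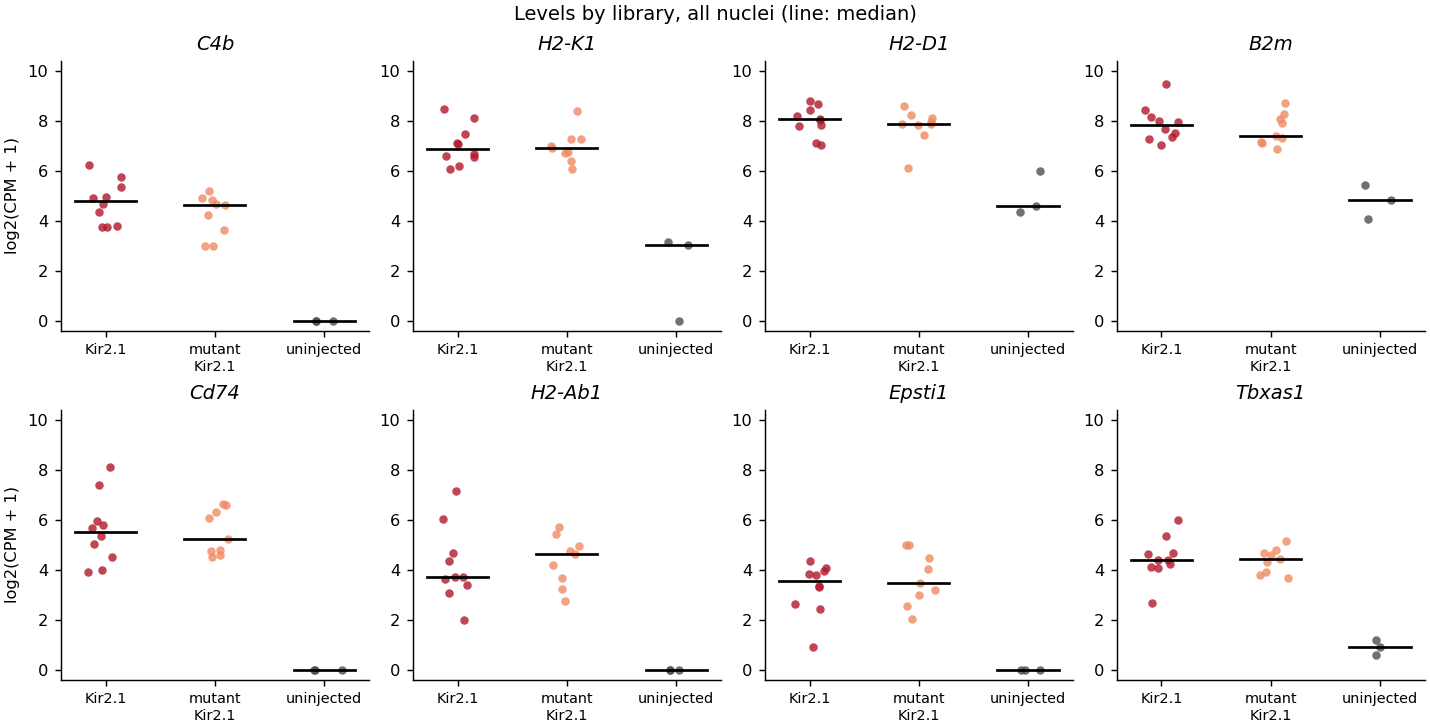
Level of 8 genes in each library, as log2(CPM + 1), for Kir2.1, mutant and uninjected cortex (points are libraries, lines are group medians). C4b, Cd74, H2-Ab1 and Epsti1 were at 0 in all 3 uninjected libraries, and the injected libraries lay above all uninjected libraries in each of the 8 panels.

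Class I and class II genes were both higher, so the promoters of 3 of them are shown, as RefSeq gives them on GRCm38.p6, from 250 bases before to 50 after the gene start, on the gene's strand. In H2-K1 (chr17:34000298-34000597, minus strand) and H2-Aa (chr17:34287774-34288073, minus strand) capitals mark CCAAT on either strand, the core of the Y box that class II and class I promoters are known for. In B2m (chr2:122147437-122147736, plus strand) capitals mark an interferon response motif (GAAA, any pair of bases, GAAA) and beside it a kappa B motif (GGG, any pair of bases, TTTCC) read on the opposite strand.
H2-K1: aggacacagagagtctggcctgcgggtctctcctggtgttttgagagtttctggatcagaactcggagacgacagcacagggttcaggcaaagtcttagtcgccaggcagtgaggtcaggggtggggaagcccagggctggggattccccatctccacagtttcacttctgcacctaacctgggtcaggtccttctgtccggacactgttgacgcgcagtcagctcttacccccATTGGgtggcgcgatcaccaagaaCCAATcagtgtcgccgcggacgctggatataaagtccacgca
H2-Aa: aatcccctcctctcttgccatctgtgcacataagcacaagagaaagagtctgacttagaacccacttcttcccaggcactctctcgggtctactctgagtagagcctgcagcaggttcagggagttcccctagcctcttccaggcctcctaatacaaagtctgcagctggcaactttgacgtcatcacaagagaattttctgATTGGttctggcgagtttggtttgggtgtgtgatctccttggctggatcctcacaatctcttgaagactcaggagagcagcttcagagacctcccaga
B2m: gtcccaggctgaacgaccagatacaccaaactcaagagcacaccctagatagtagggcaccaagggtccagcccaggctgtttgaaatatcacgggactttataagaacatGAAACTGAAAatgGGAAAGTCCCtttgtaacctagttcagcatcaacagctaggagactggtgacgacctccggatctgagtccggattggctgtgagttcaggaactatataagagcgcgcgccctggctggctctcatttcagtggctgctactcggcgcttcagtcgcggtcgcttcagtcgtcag
Of the 52 higher genes, 38 had a promoter in the RefSeq table. CCAAT was found in 22 of these 38 windows (57.9%), against 41.1% of 27025 windows of the same length over all genes, and in all 8 of the antigen presentation genes that had a window. The interferon response motif was in 1 of the 38 (2.63%, against 3.99% of all windows), and that gene was B2m. The gamma interferon motif TTCNNNGAA was also in 1 of the 38, Icam1 (2.63%, against 9.55%). The kappa B motif in the letters given above was in B2m alone (2.63%, against 1.89%). Both strands were searched for these exact letters only. Variant forms of a motif were not searched, so a window without a match, such as that of H2-K1, may still hold one. A match describes letters in a window, not a bound site.

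On chromosome 17, between the first base of H2-K1 and the last base of H2-Q7 (chr17:33996017-35443773), 9 of 86 genes tested were higher (10.5%): C4b, Tap1 and 7 H2 genes. This interval was drawn after its values were seen. H2-Q6 and H2-Q7, class I genes of the Q region that resemble each other closely, were at 0 CPM in all uninjected libraries. H2-Q7 had 3.92, 15 and 39.8 CPM and H2-Q6 had 4.21, 21.1 and 52.0 CPM in injected libraries. They were at least 109-fold and at least 143-fold higher in injected cortex (adjusted p = 2.97e-05 and 3.93e-05, edgeR), with reads that may be shared between the copies.

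Of the class I list, 7 of 24 genes tested were higher and none lower, with a median log2 fold change of 1.34, beside 0.11 over all genes tested. The 7 were H2-Q7, H2-Q6, H2-K1, H2-D1, B2m, Nlrc5 and Tap1. The summed level of the list was 717, 1205 and 2543 CPM in injected libraries, against 796.5, 1043 and 640 CPM in uninjected libraries. These sums overlapped between the groups. Nlrc5, the transactivator that switches on class I genes, had 1.42, 16.1 and 43.9 CPM in injected libraries, against 0, 0.166 and 0.532 CPM in uninjected libraries (log2 6.34 ± 1.09, SE, adjusted p = 0.00212, edgeR). Tap1, a subunit of the transporter that carries peptides to class I molecules, had 0, 12.2 and 50.8 CPM in injected libraries and 0 CPM in uninjected ones, at least 104-fold higher (adjusted p = 0.00671, edgeR). Kir2.1 library 5 also had no Tap1 count, so the groups touch at 0. The other members did not pass. Psmb9 and Psmb8, subunits of the immunoproteasome, had medians of 5.19 and 5.92 CPM in injected libraries, and at most 0.317 CPM in any uninjected library (adjusted p = 0.0951 and 0.147). Pdia3, a chaperone of the complex that loads class I molecules, had 39.3, 122 and 192 CPM in injected libraries, against 198, 332 and 182 CPM in uninjected libraries (log2 -0.93 ± 0.27, SE, adjusted p = 0.234).

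Of the class II list, 4 of 12 genes tested were higher (Cd74, H2-Ab1, H2-Aa and H2-Eb1) and none lower, with a median log2 fold change of 1.73. All 12 fitted values were above 0, which was fixed in advance for the 3 with no count in uninjected libraries. The summed level of the list was 165, 266 and 950 CPM in injected libraries, against 198, 71.3 and 25.5 CPM in uninjected libraries. These sums overlapped between the groups. Ciita, the master regulator of class II genes, had 1.04, 11.4 and 26 CPM in injected libraries, against 8.88, 10.8 and 9.75 CPM in uninjected libraries (log2 0.18 ± 0.60, SE, adjusted p = 0.961, edgeR). The 3 uninjected libraries fell inside the injected range. Ctss, the protease that trims the invariant chain, had 49.4, 134 and 277 CPM in injected libraries and 129, 46.4 and 1.77 CPM in uninjected libraries (adjusted p = 0.455).

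Of the complement list, C4b was the sole member of 18 tested to pass, and the list's median log2 fold change was 1.53, beside 0.11 over all genes tested. Fitted values were above 0 for 16 of the 18. The list holds 5 genes with no count in uninjected libraries, for which a tested value above 0 was fixed in advance. A gene that did not pass is not shown to be unchanged. C1qb, a chain of the complex that starts the classical cascade and a microglial gene in brain, had 12.0, 46.8 and 93.0 CPM in injected libraries, against 70.7, 41.6 and 2.66 CPM in uninjected libraries (log2 0.39 ± 0.50, SE, adjusted p = 0.872). C1qa and C1qc also did not pass, with adjusted p of 0.516 and 0.791.

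Of 52 interferon-stimulated and innate sensor genes tested, Sp100 and Parp14 were higher and none was lower. The median log2 fold change of the list was 2.25, and 2.04 with genes at 0 in uninjected libraries set at their bound. Of the 52 fitted values 51 were above 0. The list holds 15 genes with no count in uninjected libraries, and a tested gene of this kind can only have a value above 0. Sp100, a nuclear body protein, had 0, 7.59 and 23.6 CPM in injected libraries and none in uninjected ones, at least 56.7-fold higher (adjusted p = 0.0399, edgeR). Parp14, an ADP-ribosyltransferase, had 0.53, 6.67 and 17.1 CPM in injected libraries and 0, 0.166 and 0.354 CPM in uninjected libraries, a ratio of 43.1 with an exact 95% counting interval of 14.7 to 209 (adjusted p = 0.045). Parp14 did not overlap between the groups, whereas some injected libraries had no Sp100 count. Of the 22 fits that left out 1 library, Parp14 passed in 5 and Sp100 in 15. The summed level of the list was 208, 400 and 1381 CPM in injected libraries, against 180, 151 and 200 CPM in uninjected libraries. That sum did not overlap between the groups. Among the sums of all lists, the same held for the T cell list only. Irgm2, an interferon-induced guanosine triphosphatase, varied widely and had 0, 23.1 and 199 CPM in injected libraries, against 2.38, 1.82 and 0 CPM in uninjected libraries (adjusted p = 0.210).

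Outside that list, other genes known for virus defence or inflammation were higher, and apart from Epsti1 they are named here after their values were seen. Epsti1, an interferon-induced gene, had 0.904, 10.3 and 30.7 CPM in injected libraries and 0 CPM in uninjected ones, at least 75.7-fold higher (adjusted p = 0.00077, edgeR). Parp9, a relative of Parp14 that interferon induces, had 1.95, 8.22 and 16.9 CPM in injected libraries, against 0.317, 0.332 and 0 CPM in uninjected libraries (log2 5.19 ± 0.93, SE, adjusted p = 0.00427). Neither gene overlapped between the groups. Zc3hav1, a zinc finger protein that targets viral RNA for decay, had 0.158, 7.17 and 18.2 CPM in injected libraries and none in uninjected ones, at least 41.0-fold higher (adjusted p = 0.00403). Nlrp1b, an inflammasome sensor, had 0, 8.23 and 15.9 CPM in injected libraries and none in uninjected ones, at least 45.6-fold higher (adjusted p = 0.0081). Icam1, an adhesion molecule that leukocytes bind, had 0, 6.59 and 18.5 CPM in injected libraries and none in uninjected ones, at least 43.3-fold higher (adjusted p = 0.045). Some injected libraries had no count of Nlrp1b or of Icam1. Of the 22 fits that left out 1 library, Icam1 passed in 5 and Nlrp1b in 20.

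**Figure D2:**
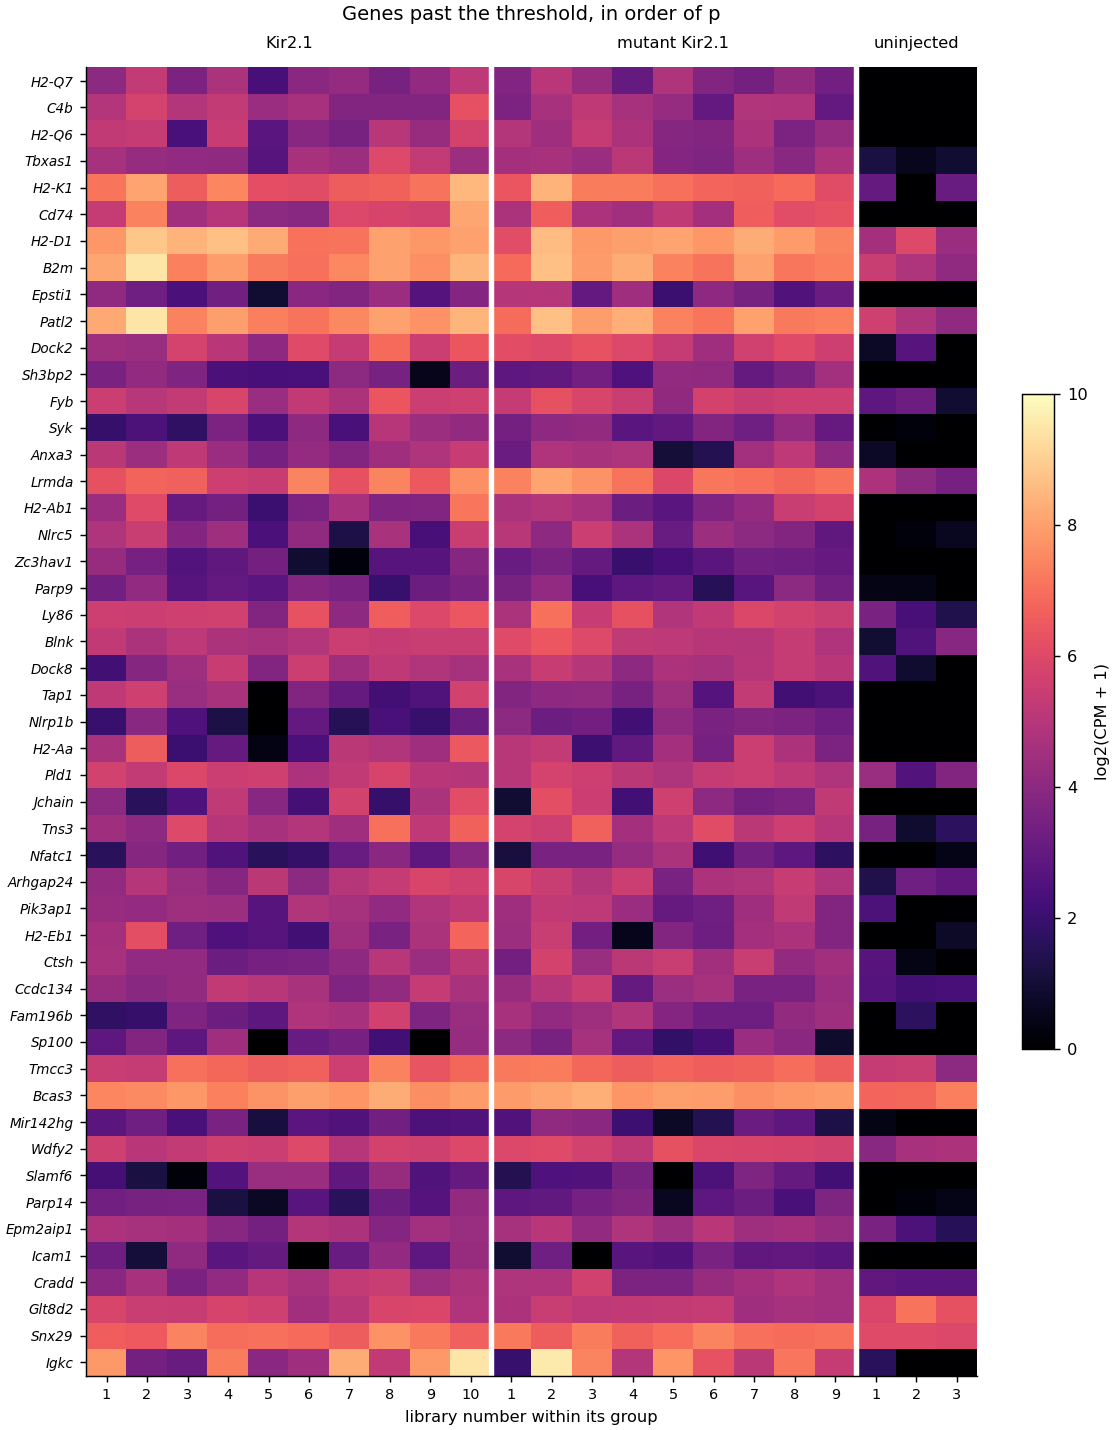
Level of the 49 genes past the threshold that have a gene name, as log2(CPM + 1), in the 10 Kir2.1, 9 mutant and 3 uninjected libraries, in order of p. The uninjected columns are at 0 in rows such as H2-Q7, C4b and Cd74, the injected columns vary widely in Igkc, and Glt8d2 is the one row that is higher in uninjected cortex.

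A further group codes for signalling and adaptor proteins of blood-derived cells and microglia. Dock2, which activates Rac in leukocytes, had 15.4, 49.6 and 117 CPM in injected libraries, against 0.634, 5.47 and 0 CPM in uninjected libraries (log2 4.65 ± 0.73, SE, adjusted p = 0.000772, edgeR). Fyb, an adaptor that links receptors to adhesion, had 16, 43.8 and 83.5 CPM in injected libraries, against 6.19, 8.45 and 0.886 CPM in uninjected libraries (log2 3.10 ± 0.49, SE, adjusted p = 0.00085). Neither gene overlapped between the groups. In the genome, Dock2 shares bases with Fam196b and Fyb with Gm2245, on opposite strands, so reads may be shared within each pair. Syk, the kinase below Fc and related receptors, had 2.37, 9.64 and 31.6 CPM in injected libraries, against 0, 0.166 and 0 CPM in uninjected libraries. That single uninjected count gives a ratio of 211 with an interval of 37.7 to 8326 (adjusted p = 0.00085). Tbxas1, thromboxane A synthase, had 5.42, 20.2 and 62.9 CPM in injected libraries and 1.27, 0.497 and 0.886 CPM in uninjected libraries (log2 4.66 ± 0.65, SE, adjusted p = 0.000218). Blnk, an adaptor below Syk, and Dock8, a relative of Dock2, were also higher (log2 2.64 ± 0.49 and 3.83 ± 0.72, SE, adjusted p = 0.00643 and 0.00671). Blnk and Dock8 were named after their values were seen. Dock8 overlapped, with Kir2.1 library 1 at 3.55 CPM below uninjected library 1 at 4.76 CPM.

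Among the other genes with the smallest p, Sh3bp2, an adaptor of immune receptors, had 0.418, 9.27 and 22.2 CPM in injected libraries and none in uninjected ones, at least 58.8-fold higher (adjusted p = 0.000772, edgeR). Anxa3, a membrane-binding annexin, had 1.06, 21.4 and 41.1 CPM in injected libraries, against 0.634, 0 and 0 CPM in uninjected libraries (log2 6.47 ± 1.07, SE, adjusted p = 0.00139). Neither gene overlapped between the groups, although the lowest Anxa3 value in injected cortex lay just above uninjected library 1. Of all 52 genes, 46 are annotated as protein coding and 4 carry clone names.

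The antibody genes Igkc and Jchain were higher in injected cortex and varied widely between its libraries. Igkc, the kappa light chain constant region, had 2.86, 77.6 and 764 CPM in injected libraries, against 2.06, 0 and 0 CPM in uninjected libraries (log2 7.85 ± 1.79, SE, adjusted p = 0.0475, edgeR). Jchain, which joins antibody units in plasma cells, had 0.892, 15 and 72.3 CPM in injected libraries and none in uninjected ones, at least 145-fold higher (adjusted p = 0.0136). Igkc passed in 7 of the 22 fits that left out 1 library. Igkc and Jchain were the 2 genes to pass of 18 B cell and plasma cell markers tested. The summed level of those markers was 20.2, 468 and 2070 CPM in injected libraries, against 28.4, 27.0 and 22.3 CPM in uninjected libraries, so the lowest injected library lay below all 3. Ighm, the heavy chain of immunoglobulin M, had 7.67, 42.8 and 616 CPM in injected libraries, against 18.9, 14.3 and 17.4 CPM in uninjected libraries (adjusted p = 0.390). The B cell receptor gene Cd79b had a median of 0 CPM in injected libraries and 0 CPM in each uninjected one.

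No T cell marker passed of 21 tested, with 0 higher and 0 lower, and Cd3e, Cd4 and Trac had medians of 0 CPM in injected libraries. The summed level of the T cell list was 70.1, 94.5 and 181 CPM in injected libraries, against 64.1, 57.5 and 38.6 CPM in uninjected libraries. The sums did not overlap, and Ptprc, the pan-leukocyte surface phosphatase that microglia carry too, was the member with the smallest adjusted p (0.147), at 9.80, 24.1 and 48.1 CPM in injected libraries and 9.67, 6.63 and 0.532 CPM in uninjected libraries. None of 13 chemokine and cytokine genes passed, although Cxcl16 was at 0 CPM in uninjected libraries and had a median of 3.34 CPM in injected ones (adjusted p = 0.119).

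**Figure D3:**
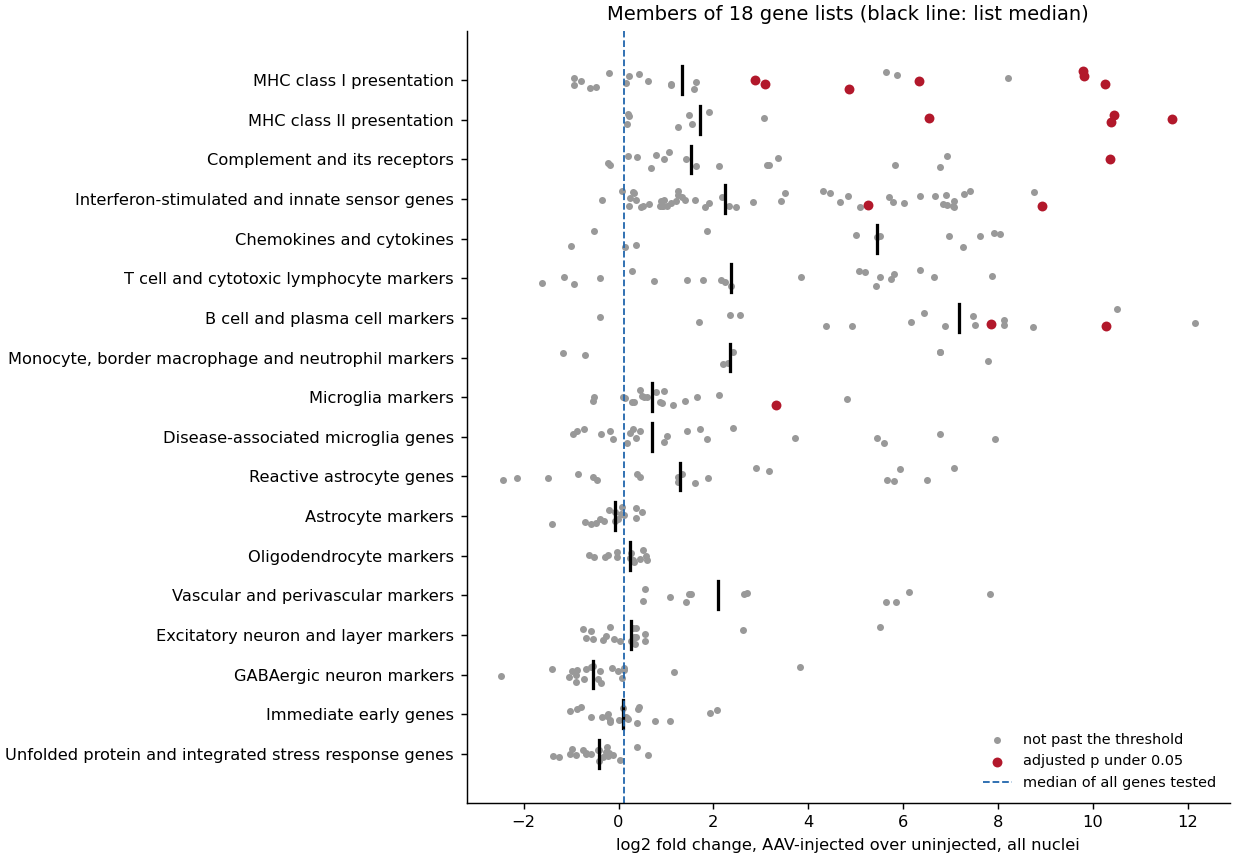
Fitted log2 fold change, injected over uninjected, of each tested member of 18 gene lists (red points passed, grey points did not, black lines are list medians, the dashed line is the median of all genes). Red points lie in 6 lists, all on the side of injected cortex; values of genes at 0 in uninjected libraries depend on the prior count and are not sizes.

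Markers of microglia overlapped between the groups. The summed level of 19 microglia markers was 435, 877 and 1538 CPM in injected libraries, against 1268, 562 and 163 CPM in uninjected libraries. Ly86 was left out of the 19 because it passed the threshold. Uninjected library 1 lay above 16 of the 19 injected libraries in this sum. In that library C4b and Cd74 were at 0 CPM and H2-K1 at 7.14 CPM. The part of microglia in the differences was not tested. Csf1r, the receptor microglia need to survive, had 40.3, 107 and 204 CPM in injected libraries, against 269, 55.4 and 12.2 CPM in uninjected libraries (log2 0.14 ± 0.46, SE, adjusted p = 0.961, edgeR). Cx3cr1, a receptor that marks them, had 45.5, 99.4 and 152 CPM in injected libraries, against 127, 102 and 59.5 CPM in uninjected libraries (log2 0.10 ± 0.27, SE). Of the 20 listed markers 1 passed, Ly86, part of a receptor complex that senses bacterial products, with 12.7, 48.3 and 130 CPM in injected libraries and 10.8, 3.81 and 1.60 CPM in uninjected libraries (log2 3.31 ± 0.60, SE, adjusted p = 0.00453). In bulk libraries, fewer cells of a type and less RNA per cell cannot be told apart.

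Dividing each library by its microglia marker sum, a step chosen after seeing the data, left 29 of the 52 genes without overlap, and 34 of all genes tested (0.159%). For the 16 of the 52 at 0 in all uninjected libraries, division could not change whether the groups overlap. The 52 were also chosen as higher in these same libraries, so this count does not test the part of microglia. After division H2-K1 stood at 61.2, 150 and 405 CPM per 1000 CPM of markers in injected libraries, against 5.63, 0 and 48.0 in uninjected libraries. Over the 19 injected libraries, C4b, H2-K1 and Cd74 were set against the marker sum, both on the log2 scale, in 3 relations. For C4b Pearson's r was 0.157 (permutation p = 0.520, adjusted 0.536) and Spearman's rho 0.184 (p = 0.448, adjusted 0.586); r was -0.003 without the 2 farthest libraries. For H2-K1 r was 0.152 (permutation p = 0.536, adjusted 0.536) and rho 0.133 (p = 0.586, adjusted 0.586), with r of 0.145 without the 2 farthest. For Cd74 r was 0.174 (permutation p = 0.475, adjusted 0.536) and rho 0.195 (p = 0.423, adjusted 0.586), with r of 0.236 without the 2 farthest. None of the 3 relations passed, which over 19 libraries does not show that the levels are unrelated. Within the Kir2.1 libraries r was -0.116, -0.066 and -0.183 for the 3 genes, and within the mutant libraries 0.265, 0.359 and 0.636. The last of these, for Cd74, had a permutation p of 0.0713 over 9 libraries, not adjusted. These relations do not test the part of microglia in the difference between injected and uninjected cortex.

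**Figure D4:**
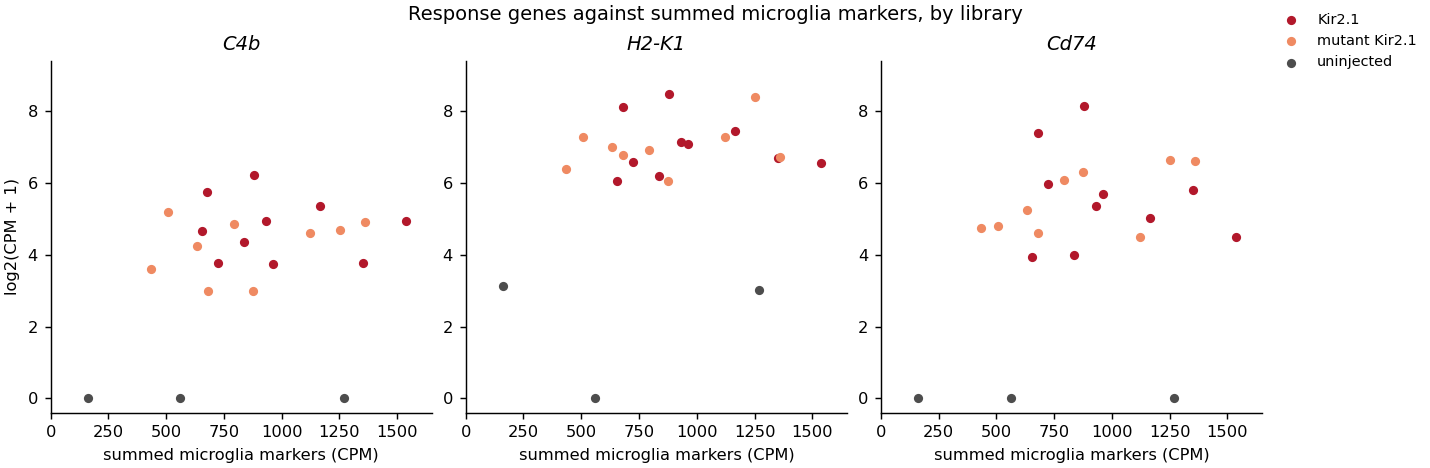
Level of C4b, H2-K1 and Cd74, as log2(CPM + 1), against the summed CPM of 19 microglia markers, with 1 point per library. The 3 uninjected libraries span 163 to 1268 CPM of markers, overlapping the injected span of 435 to 1538 CPM, and lie under all injected libraries in each panel.

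Other resident cell types gave no gene past the threshold, by the lists used: 0 of 16 astrocyte, 0 of 14 oligodendrocyte, 0 of 10 oligodendrocyte precursor, 0 of 12 vascular, 0 of 19 excitatory neuron and 0 of 21 GABAergic neuron markers passed in either direction. Reactive astrocyte genes (0 of 20), disease-associated microglia genes (0 of 22) and monocyte, border macrophage and neutrophil markers (0 of 8) also had none. Some of these lists had medians above the 0.11 of all genes tested. The median log2 fold change was 2.09 for vascular markers, 1.30 for reactive astrocyte genes and 2.36 for the monocyte list. Of the 16, 27 and 16 genes listed, tested or not, 6, 9 and 8 had no count in uninjected libraries. Among genes tested, fitted values were above 0 for 12 of 12, 14 of 20 and 6 of 8. For a tested gene with no count in uninjected libraries, a value above 0 was fixed in advance. Gfap, the astrocyte filament that rises in injured tissue, had 2.85, 10.5 and 45.7 CPM in injected libraries, against 15.1, 0 and 8.15 CPM in uninjected libraries (adjusted p = 0.617). The GABAergic list had a median log2 fold change of -0.55 and a summed level of 773, 1098 and 2432 CPM in injected libraries, against 1678, 2161 and 1312 CPM in uninjected libraries. The unfolded protein response list had a median of -0.42, with 3 of 21 fitted values above 0 and 0 passing. Immediate early genes, which neurons switch on when they fire, had a median of 0.09 and 0 of 21 passed. The p53, axon injury and cell cycle lists also had 0 passing.

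Genes related to parts named in the vector's label read as follows, though the label does not say which gene its KASH domain comes from. Kcnj2, the gene that encodes Kir2.1, had 2.72, 17.1 and 157 CPM in injected libraries labelled non transduced, against 7.61, 3.98 and 5.85 CPM in uninjected libraries (log2 2.15 ± 0.82, SE, adjusted p = 0.379, edgeR). Kir2.1 libraries 1 and 2, at 157 and 71.7 CPM, were the highest. Syne2, which encodes a nesprin of the KASH domain family, had 7.41, 21.8 and 43.0 CPM in injected libraries, against 12.7, 17.4 and 11.9 CPM in uninjected libraries (adjusted p = 0.541). Whether reads from the vector were counted under these genes is not given in the sources used here.

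Glt8d2, which encodes a glycosyltransferase family protein, was the one gene lower in injected cortex. It had 21.3, 38.8 and 58.1 CPM in injected libraries, against 58.5, 134 and 75.5 CPM in uninjected libraries (log2 -1.22 ± 0.27, SE, adjusted p = 0.045, edgeR). The highest injected library lay just under the lowest uninjected one. It passed in 7 of the 22 fits that left out 1 library, and not with Y-linked transcripts as a covariate, where 0 genes were lower.

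The 19 injected libraries differed among themselves in the size of the response. Summed over the 52 genes, a total that the choice of genes makes higher in injected cortex, levels were 1684, 2499 and 5433 CPM in injected libraries, against 471, 435 and 384 CPM in uninjected libraries. Kir2.1 library 5, the shallowest with 3261893 counts, was the lowest injected library for 15 of the 52 genes. Kir2.1 library 10 and mutant library 2 were each the highest for 10 genes.

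Each vector was also set against the same 3 uninjected libraries, so these comparisons share their controls. With Kir2.1, 37 genes were higher (0.173% of genes tested) and 1 lower (0.00468%), and with the mutant 45 were higher (0.211%) and 3 lower (0.014%). H2-K1 differed from uninjected cortex by log2 4.92 ± 0.72 (SE) with Kir2.1 and by 4.80 ± 0.71 with the mutant (adjusted p = 0.00039 and 0.0007, edgeR). B2m differed by 3.21 ± 0.49 with Kir2.1 and 2.91 ± 0.48 with the mutant. Set directly against each other, Kir2.1 and mutant libraries differed in 0 genes in either direction (0%), with 704 genes higher and 585 lower at an unadjusted p under 0.05 in edgeR. The difference of Kir2.1 over mutant was 0.12 ± 0.35 (log2, SE) for H2-K1, 0.20 ± 0.25 for H2-D1, 0.30 ± 0.27 for B2m and 0.48 ± 0.46 for Cd74. A p above the threshold does not show that the vectors act alike.

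VIP neurons, the interneurons whose Cre line tags the sorted nuclei, were sorted from the same 2 kinds of cortex and their non-transduced libraries allow the same contrast. There 5 of 19470 genes tested were higher (0.0257%) and 0 lower, with 1203 higher and 609 lower at an unadjusted p under 0.05. The 5 were Cd74, Igkc, Ighg2b, Gm37254 and Gm30211, and without any 1 of the 3 uninjected VIP libraries 0 genes were higher. Of the 52 genes higher in all nuclei 40 were tested in VIP nuclei, 35 had a log2 fold change above 0 there and 3 passed: Cd74, Igkc and Gm30211, a gene that Igkc overlaps. For 9 of the 40, with no count in uninjected VIP libraries, a value above 0 there was fixed in advance. The median log2 fold change of the 40, which were chosen by their values in all nuclei, was 4.76 in all nuclei and 1.43 in VIP nuclei. Over all genes tested the medians were 0.106 in all nuclei and 0.0752 in VIP nuclei. Cd74 had 0.155, 9.72 and 35.6 CPM in injected VIP libraries and 0 CPM in each uninjected VIP library (adjusted p = 0.0279, edgeR). C4b had 0, 0.505 and 17.8 CPM in injected VIP libraries, with a count in 10 of 19, and none in uninjected VIP libraries.

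The effect of injection on H2-D1 and Nlrc5 differed between all nuclei and VIP nuclei, though for neither gene under every alternative. H2-D1 had 15, 74.0 and 124 CPM in injected VIP libraries, against 79.0, 143 and 42.4 CPM in uninjected VIP libraries (log2 -0.39 ± 0.43, SE). The injection effect on H2-D1 was larger in all nuclei than in VIP nuclei by log2 3.24 ± 0.63 (SE, adjusted p = 0.0344, edgeR interaction term). For Nlrc5 this difference was 8.74 ± 1.77 (adjusted p = 0.0468), with 0, 0 and 1.88 CPM in injected VIP libraries and 0, 4.38 and 1.5 CPM in uninjected VIP libraries. H2-K1 had 1.5, 17.1 and 88.4 CPM in injected VIP libraries, against 12.3, 23.3 and 21.6 CPM in uninjected VIP libraries (log2 0.18 ± 0.72, SE), and its difference of 4.66 ± 1.04 between all nuclei and VIP nuclei did not pass (adjusted p = 0.157). In all, the interaction passed for 3 genes in the direction of all nuclei (0.0131% of 22855 tested) and for 1 in the other (0.00438%); among libraries labelled male it passed for 0 and 0. With same-numbered libraries of all nuclei and VIP nuclei as a replicate block, H2-D1 passed (log2 3.39, adjusted p = 0.000502) and Nlrc5 did not (9.33, adjusted p = 0.175). Without uninjected VIP library 2 neither passed (adjusted p = 0.279 for both), nor did either without uninjected all-nuclei library 1 (adjusted p = 0.333 and 0.357) or library 3 (0.303 and 0.177). Nlrc5 also did not pass without uninjected all-nuclei library 2 (adjusted p = 0.392) or with the sex label as covariate (0.0553). Leaving out 1 injected all-nuclei library was often enough to lose Nlrc5, as without Kir2.1 library 1 (adjusted p = 0.0638) or mutant library 1 (0.0798). Other such fits kept it, as without Kir2.1 library 5 (0.0317).

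**Figure D5:**
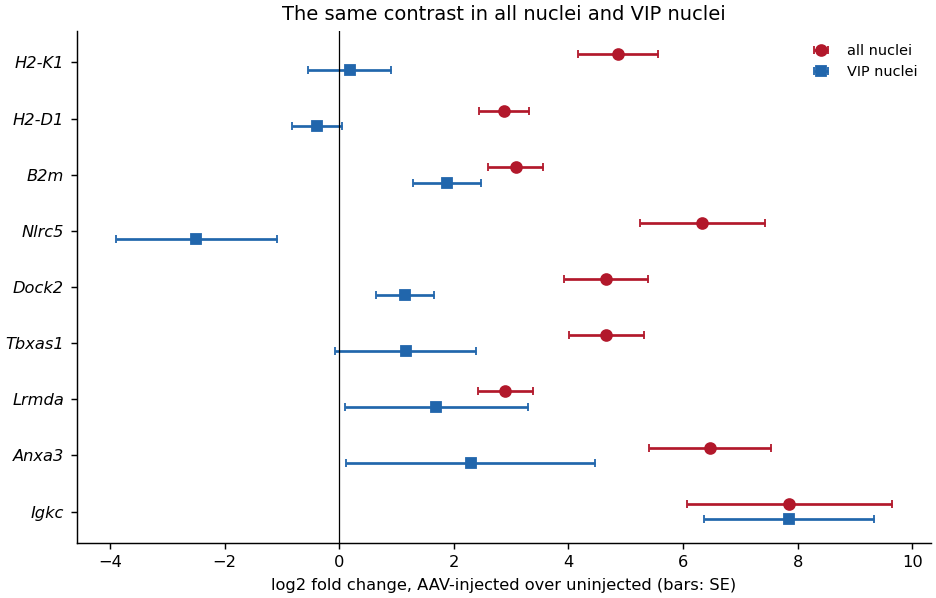
Log2 fold change, injected over uninjected, of 9 genes in all nuclei (red circles) and VIP nuclei (blue squares), with bars of 1 SE. H2-D1 lies at 2.88 in all nuclei and -0.39 in VIP nuclei, and Igkc lies at about the same place in both. The Dock2 points may hold reads shared with Fam196b on the opposite strand.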

How the data were processed

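Per the labels' protocols, nuclei of visual cortex were sorted and amplified by PCR; molecular identifiers are not named. The authors deposited whole-number read counts per gene, not normalized; cutadapt 1.18, STAR 2.5.3a and HOMER 4.9.1 are listed, with mm10 as build, in the submitters' processing notes, and neither strand nor annotation is given in the sources used here. Xist and Tsix overlap on opposite strands and had nearly equal counts over the 22 libraries, 117093 and 117435, so reads of such pairs may be counted under both genes. Of 55335 gene IDs, 55154 matched GENCODE vM21. Libraries were grouped by label. Genes passing filterByExpr (minimum count 10, minimum total 15) were fitted with edgeR 4.0.16 (R 4.3.3; TMM, quasi-likelihood, no covariate), and Benjamini-Hochberg adjustment ran over all genes tested, with a threshold of 0.05. CPM use TMM-adjusted library sizes, and SE is the log2 fold change over the root of F. Correlation p-values come from 100000 permutations. The script was tested on simulated data. Genes named were C4b, H2-K1, Cd74, Kcnj2 and Syne2, the 15 higher and 15 lower genes past the threshold with the smallest p (without clone names and sex-linked genes), and up to 4 members past the threshold per list, or the 2 with the smallest p; further members were named after their values were seen. The comparison and its lists were chosen with earlier results of these data known. PCR reads without such identifiers are not independent molecules, so intervals and floors cover counting error only. Alternatives used limma 3.58.1 and DESeq2 1.42.0.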

Additional observations from a re-analysis of the deposited data

Results flagged for a closer look

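Among 97 genes and 194 groups of libraries, 17 values lay far from the rest of their group on the log2(CPM + 1) scale; chance alone flags about 1 group in 20. No explanation of these values was tested. Mutant library 1 was low for H2-D1 (67.45 CPM), for the myelin gene Cldn11 (39.97 CPM) and for mt-Nd1 (295 CPM). Mutant library 5 was low for Fyb (16.02 CPM), Arhgap24 (10.59 CPM) and Parp14 (0.5295 CPM), and mutant library 6 for Dock2 (20.94 CPM). Mutant library 4 was low for Nlrp1b (3.48 CPM) and H2-Eb1 (0.4539 CPM) and high for the pericyte gene Vtn (12.41 CPM). Kcnj2 was low in mutant library 8 (2.724 CPM). Kir2.1 library 5, the shallowest, was low for Pik3ap1 (5.422 CPM), Mir142hg (1.205 CPM) and Xbp1 (4.518 CPM). Dock8 was low in Kir2.1 library 1 (3.549 CPM), Sh3bp2 was low in Kir2.1 library 9 (0.4177 CPM) and Vtn was high in Kir2.1 library 2 (60.67 CPM).

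The effect of injection differed between all nuclei and VIP nuclei for 4 genes by the interaction term of edgeR's quasi-likelihood fit. The difference on the log2 scale was 3.242 for H2-D1, 8.742 for Nlrc5, 6.889 for Gm38413 and -9.059 for Gm37254. For Gm38413 and Gm37254 a group of VIP libraries had no count, so these values depend on the prior count and are not sizes. Gm37254 did not pass with a replicate block or among libraries labelled male (adjusted p = 0.0507 for both), nor without uninjected VIP library 2 (0.0588). Gm38413 had 9.26, 27.1 and 39.7 CPM (lowest, median and highest) in injected libraries of all nuclei, against 18.6, 7.18 and 17.4 CPM in uninjected ones; a count in 1 uninjected VIP library (4.17 CPM) and none in injected VIP libraries set its difference, which was 0.739 without that library (adjusted p = 1). Gm37254 had 2.36, 7.61 and 44.8 CPM in injected VIP libraries and 0 CPM in uninjected VIP libraries, while in all nuclei it had 2.05, 8.19 and 14.8 CPM in injected libraries, against 5.75, 6.22 and 11.5 CPM in uninjected libraries.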

How the results depend on the processing

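All 52 higher genes kept a log2 fold change above 0 under every alternative run, and none of the 53 genes past the threshold reversed, but the counts moved. The cause was not tested. Against 52 higher and 1 lower, all nuclei gave 52 and 2 with RLE size factors, 378 and 15 in DESeq2, 8 and 4 in voom with quality weights, 89 and 206 with no filter, and 58 and 2 with a mean of at least 5 CPM. They gave 46 and 4 with the sex label as covariate, 42 and 2 among libraries labelled male, 42 and 3 with the vectors weighted equally, 40 and 0 with Y-linked transcripts as covariate, and 37 and 9 among libraries holding them (both added after seeing the data). Leaving out each library in turn gave 25 to 64 higher and 0 to 5 lower, and 18 of the 53 genes passed in all of these fits. For Kir2.1 this range was 22 to 49 and 0 to 3, for the mutant 21 to 56 and 0 to 7, for VIP nuclei 0 to 7 and 0 to 1, and for the difference between all nuclei and VIP nuclei 1 to 4 and 1 to 2, where the single higher gene without uninjected VIP library 2 was none of the 3. With no filter the mutant had 6 lower, and VIP nuclei 10 higher and 192 lower. Among libraries labelled male Kir2.1 had 0 lower and the difference 0 and 0. Ttr had a log2 fold change of -0.03587 in voom. No library stood apart, so no fit without such libraries was run. Depth limits genes at 0 in 3 uninjected libraries of 50 to 100 nuclei to lower bounds.

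Replicate numbers are shared across groups, and the labels do not say what they stand for. Correlations of same-numbered libraries ran from -0.169 to 0.0489 between vectors, with 0 of 15 pairs over 0.1. Between all nuclei and VIP nuclei they ran from -0.0075 to 0.417, with 7 of 22 pairs over 0.1, and the presence of Y-linked transcripts matched in 22 of 22 pairs, a hint from the data, not the design, that such pairs may share an animal. With a replicate block, all nuclei had 34 higher and 3 lower, 31 of the 34 among the 52. Kir2.1 had 2 lower, the mutant 29 higher and 1 lower, VIP nuclei 6 lower, and the difference 3 higher, 1 of them among its first 3, and 0 lower, while St18 had a log2 fold change of -0.1811.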
